A study of Mus musculus with 6 samples.

Results

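The genes described here are 29 markers of Sertoli cells, the somatic cells that line the seminiferous tubule and carry the germ cells through their development. They were chosen by name from the deposited table of 54532 Ensembl genes, each name matched 1 row, and 28 of the 29 passed the filter on low counts and were among the 19320 genes tested. The 6 libraries were made from whole mouse testis, 3 from wild-type testes (WT 1 to WT 3) and 3 from testes in which the testis-specific long non-coding RNA gene 1700052I22Rik was knocked out (KO 1 to KO 3), a transcript studied for its part in the condensation of spermatid chromatin. The labels give tissue and genotype alone: strain, age, any treatment, the part of the locus that was removed, the number of founder lines and whether each library is a separate animal are not stated there. P-values therefore measure the spread between these libraries, which may be technical. Because the tissue was not sorted, fewer Sertoli cells and less RNA per Sertoli cell cannot be told apart in any value below.

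Sertoli cells are the target of follicle-stimulating hormone (FSH) and, through the androgen receptor, of the testosterone made by Leydig cells in the space between the tubules. They send growth factors to germ cells and to the interstitium, secrete proteins into the tubule, and are specified in the fetal gonad by SOX9 acting with WT1 and GATA4.

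Libraries held 17635045 to 18117593 counts, and all 29 markers together took 0.254% to 0.305% of them. 1700052I22Rik had 185, 175 and 218 reads in WT and 0, 0 and 0 among 53537734 reads in KO, which allows at most 0.0560 CPM (reads of a gene per 1000000 reads of its library, scaled by TMM where libraries are compared) over the 3 KO libraries, counting error only. WT 1 and KO 2 stood apart from the other 4 on the leading principal component of all genes (-22.8 and -30.2 against 6.98 to 17.5, with 26.6% of the variance), and values without them are given where a result rests on them. Leydig cell markers were also lowest in these libraries: the summed level of the 12 listed genes was 437 CPM in WT 1 and 484 in KO 2, against 705 to 1169 in the rest. On the next principal component, with 23.5% of the variance, WT 2 (-31.93) and KO 3 (29.75) stood apart, against -2.624 to 6.671 in the rest.

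Upstream sequence was available for 19 of the 29 genes (RefSeq, build GRCm38.p6, which shares its coordinates with mm10), with 20 start sites because Gdnf has a pair. The 250 bases before the start site are shown for 4 genes that the results below turn on: Drd4, whose level followed that of Leydig cell transcripts, Serpina5, which had a small unadjusted p, and the neighbouring cystatin genes Cst9 and Cst12. They are written 5′ to 3′ on the strand of the gene, and capitals mark matches, on either strand, to GATAA (GATA factors), to the SOX factor letters ACAAAG and their variant ACAATG, to AGAACA (the half-site of the androgen receptor), to AAGGTCA (NR5A factors), to TATAAA (the TATA box), to CCAAT (the CCAAT box), to TGACG (the half-site of the cAMP response element) and to GGGCGG (the GC box).
Drd4: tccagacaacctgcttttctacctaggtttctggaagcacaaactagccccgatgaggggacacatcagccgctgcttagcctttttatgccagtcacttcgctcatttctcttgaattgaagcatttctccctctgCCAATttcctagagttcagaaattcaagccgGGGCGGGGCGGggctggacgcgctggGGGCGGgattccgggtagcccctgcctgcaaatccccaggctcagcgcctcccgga
Serpina5: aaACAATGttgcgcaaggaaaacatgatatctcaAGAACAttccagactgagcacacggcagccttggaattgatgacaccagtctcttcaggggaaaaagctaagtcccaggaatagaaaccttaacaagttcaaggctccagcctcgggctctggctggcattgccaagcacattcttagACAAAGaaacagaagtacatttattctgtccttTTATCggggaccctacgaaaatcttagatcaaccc
Cst9: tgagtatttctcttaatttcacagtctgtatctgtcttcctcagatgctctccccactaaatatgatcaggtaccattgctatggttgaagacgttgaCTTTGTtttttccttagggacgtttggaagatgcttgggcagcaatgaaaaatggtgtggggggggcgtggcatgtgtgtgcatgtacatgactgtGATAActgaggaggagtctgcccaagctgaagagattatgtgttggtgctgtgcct
Cst12: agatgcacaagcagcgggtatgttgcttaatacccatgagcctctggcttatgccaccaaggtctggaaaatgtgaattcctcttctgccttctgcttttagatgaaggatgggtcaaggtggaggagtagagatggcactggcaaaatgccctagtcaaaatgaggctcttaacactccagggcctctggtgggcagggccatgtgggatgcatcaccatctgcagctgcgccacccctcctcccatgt
The windows lie at chr7:141291768-141292017, chr12:104100863-104101112, chr2:148834897-148835146 and chr2:148789115-148789364, all on the plus strand. The Drd4 window holds 3 GC boxes, a pair of them overlapping, and a CCAAT match, and no match to the androgen receptor half-site. The Serpina5 window holds 2 SOX matches, 1 GATA match and 1 androgen receptor half-site. Cst9 has 1 GATA and 1 SOX match, and Cst12, whose start lies in the same cluster, has a match to none of the 8 motif groups. GATAA was present in 9 of the 20 member windows (45%) and in 22.6% of 32851 windows of the same length. For the SOX letters these shares were 30% and 25.2%, and for the androgen receptor half-site 20% and 16.1%. A match of this kind is a string of letters and not evidence of binding. The window listed for Rhox5 lies 50234 bases from the start of the deposited gene model, so it is not shown. It is still counted among the 20 windows and among the 4 with an androgen receptor half-site. The Gata1 window, also counted, lies 10161 bases from its gene start.

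Levels of the markers are compared per kilobase of gene length. Clu, encoding clusterin, a secreted chaperone, was the most abundant at 350 CPM per kb, above 99.4% of the genes tested, and on the CPM scale it alone made up 43.6% of the summed level of the 29 genes. After it came Defb19, a beta-defensin gene expressed in Sertoli cells (296 CPM per kb), Cst9, a cystatin (185), Ptgds, the prostaglandin D synthase gene (135), and Aard (125). The transcription factors lay in the middle, from 17.2 CPM per kb for the X-linked homeobox gene Rhox8 to 4.09 for Sox9. The scarcest tested genes were Gdnf (0.305), Trf, encoding transferrin (0.353), and Wnt5a (0.390). Krt18, a keratin best known from immature Sertoli cells, had 5, 0 and 2 reads in WT and 2, 1 and 2 in KO, too few to test. Most of the defining markers were thus present in every library, whereas transferrin and keratin 18, often listed as Sertoli markers, had few counted reads. Both counts may be too low. Trf shares 2108 exon bases with another gene model on its strand, and Krt18 has copies to which reads may have been assigned.

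**Figure D1:**
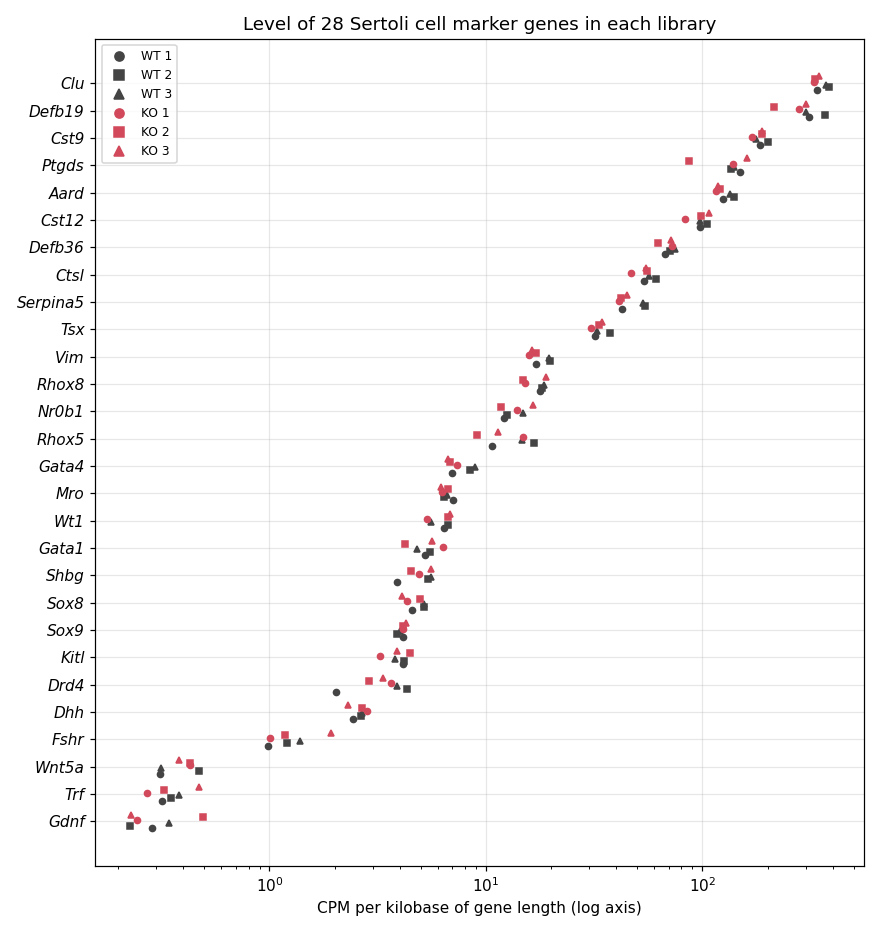
Level of the 28 tested markers in each library, as CPM per kilobase of gene length on a log axis (dark grey, WT; red, KO; circle, square and triangle are libraries 1, 2 and 3). Levels run from 0.305 for Gdnf to 350 for Clu, and the libraries of a gene often overlap those of the next gene in the order; Ptgds and Defb19 in KO 2 are set apart to the left.

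KO and WT testes were compared to ask whether loss of the transcript went with a change in these cells. No marker was called: 0 of the 28 had an adjusted p under 0.05 in edgeR (adjusted p from 0.965 to 0.995), where 0.00518% of all tested genes, a single gene (1700052I22Rik itself), was called. DESeq2 and limma-voom also called 0 of them, and each of the 3 tools had 4 markers at an unadjusted p under 0.05. Fold changes were small and leaned to the lower side. The median log2 fold change of KO over WT was -0.06, with 18 of 28 below 0, beside a median of -0.0025 and 50.7% below 0 over all tested genes. The 95% interval lay within 2-fold in either direction for all 28 tested markers and within 1.5-fold for 23 of them. Markers share the cells they come from, so their signs are not independent of each other.

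**Figure D2:**
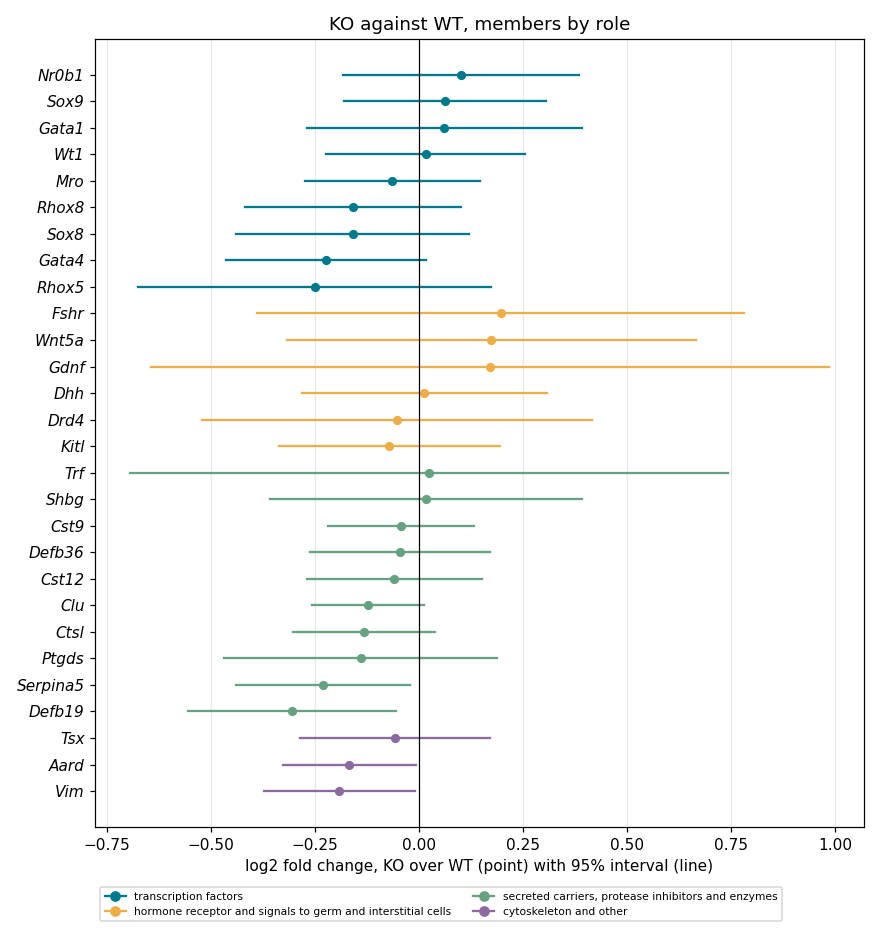
Log2 fold change of KO over WT (point) with its 95% interval (line) for the 28 tested markers, coloured by role. Points run from -0.31 (Defb19) to 0.20 (Fshr), and the intervals of Defb19, Serpina5, Aard and Vim lie below 0 before any adjustment for the number of genes tested.

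At an unadjusted p under 0.05 there were 4 markers, all lower in KO, which is 14.3% of the 28 beside 2.22% of all tested genes (0 higher, beside 2.41%). The groups did not overlap for 3 of them, all lower in KO, 10.7% beside 4.63% of all tested genes, and for 0 on the higher side, beside 4.69%. This count rested on single libraries. The share of all tested genes under that limit in either direction, 4.63% with all libraries, moved as well. The count of markers was 0 without WT 2 (2.94% of all genes), 1 without WT 3 (4.36%), 1 without KO 2 (7.34%) and 2 without KO 1 (5.42%). It was 4 without KO 3 (2.48%), 6 without WT 1 (7.14%) and 6 without WT 1 and KO 2 together (8.51%). The 4 genes are described next.

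Defb19 had 122, 145 and 119 CPM across WT and 111, 84.1 and 118 across KO. All KO values lay below all WT values, but KO 3 lay just below WT 3, and KO 2 was far below the rest. Its log2 fold change was -0.31 (SE 0.12, 95% interval -0.55 to -0.056; edgeR adjusted p = 0.965), and -0.17 without KO 2. Defb36, a second defensin gene 24.0 kb away and read from the opposite strand, had a log2 fold change of -0.05 (95% interval -0.26 to 0.17). Its values were 31.4, 33.2 and 34.8 CPM across WT and 33.7, 29.05 and 33.6 across KO, again with KO 2 the lowest. The neighbours were thus lowest in the same library but by unequal amounts, Defb19 ranging 1.73-fold over the 6 libraries and Defb36 1.20-fold.

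Serpina5, the protein C inhibitor, a serine protease inhibitor of the male tract, had 91.6, 117 and 115 CPM across WT and 89.2, 90.6 and 96.6 across KO. WT 1 lay among the KO libraries and WT 2 and WT 3 above them all. Its log2 fold change was -0.23 (SE 0.097, 95% interval -0.44 to -0.023; edgeR adjusted p = 0.965), and -0.34 without WT 1. Aard, which encodes a protein with an alanine- and arginine-rich domain, had 168, 189 and 180 CPM across WT and 156, 162 and 159 across KO. Its groups did not overlap, and the log2 fold change was -0.17 (SE 0.075; edgeR adjusted p = 0.965). Vim encodes vimentin, the intermediate filament of Sertoli cells and also of other mesenchymal cells of the testis. It had 80.9, 93.5 and 92.6 CPM across WT and 75.2, 80.8 and 77.8 across KO, with WT 1 only just above KO 2. Its log2 fold change was -0.19 (SE 0.085; edgeR adjusted p = 0.965). In Aard, Vim and Serpina5 alike WT 2 was the highest library and KO 1 the lowest.

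The secreted products as a group followed the same small lean. Of the 10 genes for secreted carriers, protease inhibitors, enzymes and defensins 8 lay below 0, with a median of -0.09, and 0 were called. These 10 include Defb19 and Serpina5, described above. Over all tested genes 50.7% lay below 0. Clu had 1162, 1316 and 1283 CPM across WT and 1128, 1143 and 1182 across KO, so that KO 3 overlapped WT 1, with a log2 fold change of -0.12 (95% interval -0.26 to 0.012). Ctsl, encoding cathepsin L, a lysosomal protease, stood at -0.13 (-0.30 to 0.038), and 2 other gene models, 1 on each strand, share part of its exons. Ptgds had 246, 223 and 230 CPM across WT and 228, 143 and 264 across KO. KO held both its lowest and its highest value, and the log2 fold change of -0.14 became 0.08 without KO 2. The cystatins were nearly level: Cst9 had 127, 138 and 122 CPM across WT and 117, 130 and 130 across KO, a log2 fold change of -0.04, and Cst12, 41.6 kb away on the same strand, had -0.06. Shbg, encoding the androgen-binding protein, and Trf stood at 0.02 each. Trf rests on 16 to 28 reads a library, and all its values are uncertain for a further reason, since another gene model on its strand shares 2108 of its exon bases.

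Signals and receptors were scarcer, and none was called. Fshr, the receptor through which FSH acts, had 2.05, 2.51 and 2.86 CPM across WT and 2.08, 2.44 and 3.98 across KO. Only KO 3 lay outside the WT range, and the log2 fold change was 0.20 (95% interval -0.39 to 0.78), or -0.13 without KO 3. Dhh, the hedgehog ligand that Sertoli cells send to Leydig and peritubular cells, had 10.7, 11.6 and 11.7 CPM across WT and 12.4, 11.8 and 10.1 across KO, a log2 fold change of 0.01 (-0.28 to 0.31). The KO libraries lay on both sides of the WT range. Part of the Dhh exons is shared with 2 other gene models, 1 on each strand. Gdnf, the factor that maintains spermatogonial stem cells, had 1.05, 0.836 and 1.27 CPM across WT and 0.900, 1.82 and 0.842 across KO, or 15 to 32 reads a library. KO 2 was its highest library, and the log2 fold change turned from 0.17 to -0.27 without it. Kitl, the ligand of KIT on differentiating spermatogonia, had 24.5, 24.7 and 22.6 CPM across WT and 19.1, 26.3 and 22.9 across KO (log2 fold change -0.07). Wnt5a had 2.44, 3.68 and 2.48 CPM across WT and 3.38, 3.35 and 2.97 across KO (0.17, 95% interval -0.32 to 0.67). For Kitl as for Wnt5a the groups overlapped. An antisense gene model shares 358 exon bases of Wnt5a.

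The transcription factor list, which holds the nuclear protein gene Mro as well, split evenly. Of 9, 4 lay above 0 and 5 below, and the range was -0.25 (Rhox5) to 0.10 (Nr0b1, encoding the nuclear receptor DAX1). Sox9 had 17.0, 16.0 and 16.5 CPM across WT and 17.0, 17.0 and 17.7 across KO (log2 fold change 0.06, 95% interval -0.18 to 0.31), the most even of the 28 genes. Its paralog Sox8 stood at -0.16 (-0.44 to 0.12), and an antisense gene model shares 329 of its exon bases. Wt1, needed to keep Sertoli cells in their fate, was at 0.02 and Gata1 at 0.06. Gata4, which Leydig cells also express, was the closest of this group to the unadjusted limit (27.1, 32.9 and 34.9 CPM across WT and 28.7, 26.6 and 26.0 across KO; log2 fold change -0.22, edgeR adjusted p = 0.965). WT 1 lay inside the KO range of Gata4. Rhox8, beside Rhox5 in the X-linked homeobox cluster at a distance of 65.9 kb, stood at -0.16 and Mro at -0.06, and Tsx, an X-linked testis gene, at -0.06.

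The lean lay with the abundant markers. The 9 with a mean of at least 50 CPM, a limit set after the values were seen, were all below 0 with a median of -0.14, and they include the 4 genes described first. Of the 4321 tested genes that abundant 44.9% were below 0, with a median of 0.01. At an unadjusted p under 0.05 the 9 held 4 lower and 0 higher genes, beside 1.9% and 3.22% of those abundant genes, and without overlap 3 lower and 0 higher, beside 3.56% and 5.6%. In the library medians of all 28 markers, taken relative to the WT mean on the log2 scale, WT 1 stood at -0.09, WT 2 at 0.07 and WT 3 at 0.04, and KO 1 at -0.15, KO 2 at -0.10 and KO 3 at 0.01. WT 1 therefore lay among the KO libraries and KO 3 near the WT ones.

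Whether a marker varied between libraries beyond what counting reads would give was examined next. For a gene at its counting error the differences between libraries cannot be told from counting noise. With the coefficient of variation (CV) of CPM over the 6 libraries set against the one that counting alone would give, 23 of the 28 markers exceeded 1.5 times counting error. Ptgds varied most for its depth (CV 18.7%, counting 1.58%), followed by Clu (6.50% and 0.682%) and Defb19 (17.0% and 2.19%). The other 5 were Sox9, Trf, Dhh, Mro and Wnt5a. Sox9 varied by less than counting error, 3.37% against 5.75%. Across the 28 markers the median CV was 10.6%, beside 12.9% over all tested genes.

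**Figure D3:**
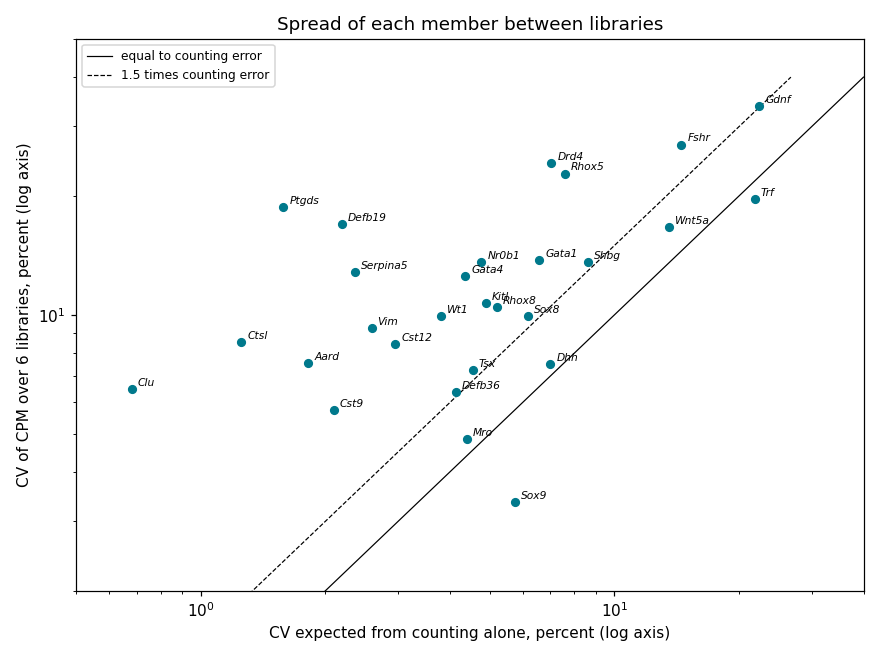
Coefficient of variation of CPM over the 6 libraries against the value expected from counting alone, both in percent on log axes, 1 point per marker; the solid line marks equality and the dashed line 1.5 times counting error. Ptgds, Clu and Defb19 lie farthest above the lines, and Sox9 and Trf lie below the solid line.

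How far the markers varied together between libraries is described by correlations over 6 points that share tissue, depth and scaling. Over the 378 pairs the median Pearson r of log2 CPM was 0.19, and 63.2% of pairs were above 0, while the median over all pairs of tested genes was -0.00090. Pairs with r above 0.8 made up 6.88% of the marker pairs and 3.53% of all pairs. Over the 23 markers that varied beyond 1.5 times counting error the median was 0.31, with 73.1% of 253 pairs above 0. No value for all tested genes under the same filter is given beside it. The median stayed between 0.13 (without WT 2) and 0.27 (without KO 3) when a library was left out, and it was 0.21 when each value was taken relative to the mean of its genotype.

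The 2 pairs with the highest r joined abundant genes. Clu and Serpina5 had r = 0.99 and rho = 1 over 6 libraries (exact permutation p = 0.00139 and 0.00278), and r = 0.95 without the 2 libraries farthest from the median of Clu. Aard and Vim had r = 0.98 and rho = 1 (exact permutation p = 0.00139 and 0.00278), and 0.90 without 2 libraries. With 378 pairs examined neither passed Benjamini-Hochberg adjustment (smallest adjusted p = 0.262), nor did any other pair, and 0.00139 is the smallest p that 720 orderings can give. Clu with Vim had r = 0.95 (exact permutation p = 0.0181) and rho = 0.83 (0.0583), but r was 0.33 without 2 libraries, so that relation rests on those libraries. The other links between the 2 pairs fell away in the same manner without 2 libraries, from r = 0.94 to 0.38 for Clu with Aard, from 0.94 to 0.09 for Serpina5 with Vim and from 0.92 to 0.06 for Aard with Serpina5. Ptgds, as abundant, had r = 0.10 with Aard, 0.0041 with Vim and -0.09 with Ctsl. Its r was 0.78 with Defb36 and with Defb19, which like Ptgds were lowest in KO 2. Without the 2 libraries farthest from the median of Ptgds these values were -0.71 and -0.30. Over the other 27 markers its median r was 0.10, with 18 above 0. Cst9 and Cst12, the neighbouring cystatins, had r = 0.84 (exact permutation p = 0.0417) and rho = 0.77 (0.103), and r = 0.48 without 2 libraries. Of the transcription factors, Sox9 had a median r of -0.22 with the other 27 markers, the lowest of all. Its spread is below counting error, so no order of its libraries can be read from these counts.

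**Figure D4:**
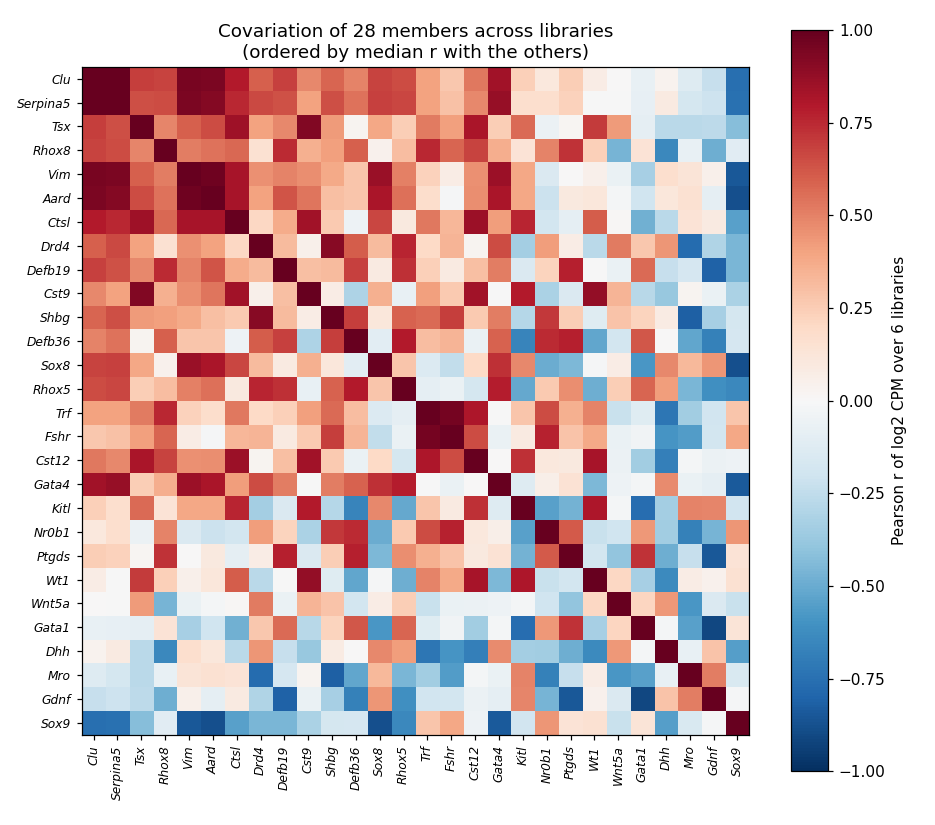
Pearson r of log2 CPM over the 6 libraries for all 378 pairs of the 28 tested markers, ordered by the median r of each with the others (red, positive; blue, negative). Clu, Serpina5, Vim, Aard and Ctsl are among the 7 genes at the upper left, and Mro, Gdnf and Sox9 at the lower right have median r from -0.22 to -0.15.

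Some markers followed the level of Leydig cell transcripts, which varied widely within both genotypes. Cyp17a1, a steroid hydroxylase needed for androgen synthesis, had 21.1, 358 and 243 CPM across WT and 277, 65.1 and 145 across KO, and Star, which brings cholesterol into mitochondria, had 22.7, 108 and 73.2 across WT and 72.8, 61.6 and 53.2 across KO. The median of the 12 Leydig genes relative to the WT mean was -0.45 in WT 1, 0.35 in WT 2, 0.29 in WT 3, 0.15 in KO 1, -0.42 in KO 2 and -0.064 in KO 3. Drd4, a dopamine receptor gene listed here among androgen-responsive Sertoli genes, had 6.82, 14.5 and 13.2 CPM across WT and 12.3, 9.70 and 11.3 across KO. Its order over the libraries was the order of the Leydig median (r = 0.92, rho = 1; exact permutation p = 0.00139 and 0.00278, two-sided). Rhox5, the homeobox gene used as the standard readout of androgen action in Sertoli cells, had 8.04, 12.6 and 11.0 CPM across WT and 11.2, 6.87 and 8.53 across KO (r = 0.94, rho = 0.89; exact permutation p = 0.00694 and 0.0333). Both were low in WT 1 and KO 2, and high in WT 2, WT 3 and KO 1.

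This relation was computed for all 28 markers, of which 21 had a positive r. After Benjamini-Hochberg adjustment over the 28 exact permutation tests the adjusted p was 0.0389 for Drd4 and 0.0972 for Rhox5, and on ranks it was 0.0778 and 0.467. Without the 2 libraries farthest from the median, WT 1 and KO 2, r over the other 4 was 0.96 for Drd4 and 0.94 for Rhox5, and within genotypes, taking deviations from each genotype mean, it was 0.96 and 0.95. Defb36 and Shbg had r = 0.82 each, but 0.14 and -0.04 without those libraries, so their relation rests on them. Clu and Sox9 had 0.70 and -0.56. Gata4 had 0.80, and 0.93 without them. In all 4 measures of Leydig level were tried, and Drd4 passed with 2 of them. With Cyp11a1 alone in place of the list its adjusted p in the exact permutation test was 0.0389 (r = 0.96), with Cyp17a1 it was 0.0778 (r = 0.99) and with Insl3 0.896 (r = 0.20). Rhox5 passed with none of the 4, its adjusted p in the other 3 being 0.194, 0.321 and 0.668. Insl3, a Leydig hormone gene, had another order than Cyp17a1 and Cyp11a1: 78.8, 83.8 and 82.6 CPM across WT and 55.6, 17.4 and 55.0 across KO (edgeR adjusted p = 0.965). It was not alone on the Leydig list in this. Star was lower in KO 3 (53.2 CPM) than in KO 2 (61.6), and Hsd3b6 was lower in KO 1 than in KO 2. Cyp17a1 and Cyp11a1 were lower in KO 2 than in KO 1 and KO 3. The relation was looked for because Leydig transcripts were known to vary in these libraries, and what it rests on was not tested.

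**Figure D5:**
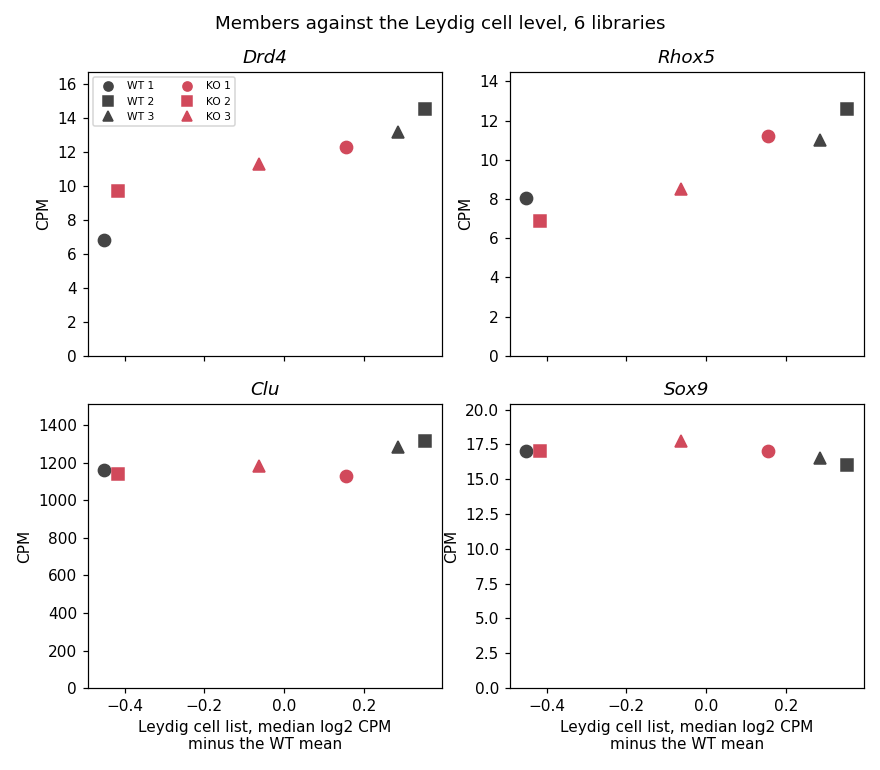
CPM of Drd4, Rhox5, Clu and Sox9 in each library against the median log2 CPM of 12 Leydig cell genes relative to the WT mean (dark grey, WT; red, KO; circle, square and triangle are libraries 1, 2 and 3). Drd4 and Rhox5 rise from the left, where WT 1 and KO 2 stand at -0.45 and -0.42, to WT 2 at 0.35, whereas Sox9 is level.

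Other androgen-responsive Sertoli genes shared this order only in part. Of the 8 on that list, 4 of them markers described above, 7 lay below 0 in KO and 0 were called (median -0.10). Eppin, an epididymal and testicular protease inhibitor gene, had the smallest p (31.9, 36.7 and 34.1 CPM across WT and 24.4, 29.05 and 32.0 across KO; log2 fold change -0.26, edgeR adjusted p = 0.965). KO 1, with a Leydig median above that of WT 1, had the lowest Eppin. Corin was lowest in KO 1 as well (30.8 CPM). Cldn3, a tight junction gene, had 73.8, 83.6 and 83.1 CPM across WT and 81.6, 68.1 and 72.3 across KO (log2 fold change -0.12). Like Drd4 it was highest in WT 2, WT 3 and KO 1. Tubb3 had 29.9, 38.3 and 44.3 CPM across WT and 45.4, 32.1 and 40.4 across KO (0.07), and was lowest in WT 1 and KO 2.

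A wider list of 31 tested Sertoli cell genes that are no markers in the set above showed the same lean. Of these 25 lay below 0, the median was -0.13, 0 were called and 5 had an unadjusted edgeR p under 0.05, all lower. Over all tested genes 50.7% lay below 0, and 2.22% were lower at that limit. Espn, encoding the actin bundler of the ectoplasmic specialization, had 109, 122 and 126 CPM across WT and 93.9, 104 and 83.9 across KO, with no overlap (log2 fold change -0.34, edgeR adjusted p = 0.965). Amhr2, the receptor of anti-Müllerian hormone, had -0.24, Etv5, a transcription factor that germ cells also express, -0.30, and Inhbb, an inhibin and activin subunit, -0.22. The summed level of this list was 1647 to 1867 CPM in WT and 1571 to 1638 in KO. That of the 29 markers was 2717 to 3023 CPM in WT and 2562 to 2777 in KO, which overlap.

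Receptors for the signals of Sertoli cells and other genes of the receiving cells were compared as well, with genes of the signalling of FSH, which Sertoli cells themselves receive. The tissue was not sorted, and other cells may express these genes. Their levels therefore do not measure signalling from or in Sertoli cells. Of all these genes 0 were called. The 11 hedgehog genes had a median of -0.05, with 8 below 0. Smo, the hedgehog signal transducer, had the smallest p (log2 fold change -0.32, edgeR adjusted p = 0.965), with all KO libraries below all WT ones. Gli2 stood at -0.42 and Ptch1, the DHH receptor, at 0.02. Of 6 genes on the GDNF list, receptors and response genes, 5 lay above 0 (median 0.18). Among them were Gfra1, the GDNF co-receptor (0.37, edgeR adjusted p = 0.965), Bcl6b (0.23) and Lhx1 (0.22), while Etv5 was lower as given above. The 4 genes of the KIT list, of which Kit alone is the receptor, all lay below 0 (median -0.15), with Kit at -0.14 and Sohlh2 at -0.17. The 6 tested WNT5A receivers had a median of -0.06, with Ror2 at 0.11. Of 7 genes of FSH receptor signalling 5 lay below 0 (median -0.04). Gnas, encoding the stimulatory G protein subunit, had 7.77, 7.19 and 7.93 CPM across WT and 5.74, 5.67 and 5.84 across KO, with no overlap (log2 fold change -0.41, edgeR adjusted p = 0.965), and Pde4d was at -0.43.

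Markers of other cells were read beside these. The lists are not separate throughout, since Nr5a1 stands on the Leydig list and on the wider Sertoli list, and Gfra1, Kit, Dmrt1 and Id4 stand on the spermatogonial list and on another. Of 12 Leydig genes 11 lay below 0 (median -0.22; summed level 437 to 1169 CPM in WT and 484 to 920 in KO). Of 12 macrophage genes 11 lay below 0 (median -0.33; 117 to 150 CPM and 106 to 118), with WT 1 at 117. At an unadjusted edgeR p under 0.05 the macrophage list held 4 lower and 0 higher genes, beside 2.22% and 2.41% of all tested genes. The Leydig list held 1 lower and 0 higher, the endothelial list 2 lower and 1 higher, and the spermatocyte and spermatid lists 0. Lower genes at that limit were thus not particular to the Sertoli lists. Peritubular myoid and endothelial genes had medians of -0.10 and -0.08 over 7 and 8 genes, with 5 below 0 in each list, and Flt1, an endothelial receptor gene, stood at 0.41 without overlap (edgeR adjusted p = 0.965). Spermatogonial genes had -0.06 over 9, spermatocyte genes 0.01 over 10 and spermatid genes 0.07 over 12, the last with 16206 to 18488 CPM in WT and 15461 to 18966 in KO. Of 11 epididymis genes 3 were tested (median 0.01) and Lcn5, Lcn8 and Ovch2 were at 0 in all libraries. The 3 tested blood genes had -0.46. In all of these lists 0 genes were called. The part of these other cells in the values above was not tested.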

How the data were processed

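RNA of whole testis was sequenced in 6 libraries (3 WT, 3 KO) made with an mRNA kit, per the labels' protocols. The authors deposited a table of raw read counts by Ensembl gene and library, which also holds gene lengths, per the file header; HISAT2 2.0.0 and mm10 are named in the submitters' processing notes. The sources used here name no counting tool, annotation release or strand setting, so reads of overlapping or near-identical genes (the Rhox, defensin and cystatin families, Krt18 copies) may be misassigned. Columns were matched to samples by their titles, and 0 were left unmatched. Of the 29 genes 28 have the same coordinates in GENCODE M21, all but Fshr. There 6 share exon bases with another gene (Ctsl, Tsx, Sox8, Dhh, Wnt5a and Trf).

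Genes were kept with filterByExpr (minimum count 10, minimum total 15), scaled by TMM and tested with edgeR 4.0.16 (glmQLFit, glmQLFTest) over all 19320 genes, with Benjamini-Hochberg adjustment and a threshold of 0.05. R 4.3.3, limma 3.58.1, DESeq2 1.42.0 and SciPy 1.17.1 were used. Errors are SDs over 3 libraries or standard errors of the fit; correlations use log2 CPM (prior count 2) and two-sided exact permutation of the 6 libraries. On simulated counts for 19056 genes in 1 run, edgeR found 44.8% of 67 genes changed 1.5-fold and 88.1% of 67 changed 2-fold. A further 66 genes were changed 4-fold, and every gene was given the same biological coefficient of variation, 0.112. The libraries themselves had 1 gene called, which makes the adjustment stricter than in the simulation. Insl3, at a log2 fold change of -0.94, had an edgeR adjusted p of 0.965. These shares are therefore not the chance of finding a marker changed that much. All library pairs differed beyond sampling noise (chi-square per degree of freedom from 4.35), so all 6 were counted.

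The members, gene lists and rules were chosen with earlier results of these data known. Values per library are given for markers with an unadjusted p under 0.05 or without overlap, the 5 highest per length, Sox9, Fshr, Dhh, Gdnf, Kitl and Wnt5a; of each pathway list up to 4 genes with the smallest p are taken, not all of which are printed. Drd4, Rhox5, Gata4, Defb36 and other genes given by role were named after their values were seen, as was the 50 CPM limit. Other settings tried were scaling by DESeq2 size factors, by the upper quartile or by library size alone, testing without a low-count filter or from 5 CPM upward, DESeq2 and limma-voom as tests, a block on replicate number, leaving out single libraries, and leaving out WT 1 and KO 2 together. Of the settings for the correlations, the deviations from genotype means, single libraries left out and the other Leydig measures were added after the data were seen.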

Additional observations from a re-analysis of the deposited data

How the results depend on the processing

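In none of these alternatives was a marker called. The count of genes called among all tested, 1 as reported, was 2 in DESeq2, 50 with no low-count filter, 9 without WT 1 and KO 2, and 1 to 3 with 1 library left out. Of the pathway and other-cell genes, 0 as reported, 4 were called with no low-count filter (Cyp17a1, Cyp11a1, Insl3 and Hbb-bs) and 1 without WT 1 and KO 2 (Insl3). The median log2 fold change of the markers ranged from -0.10 to -0.035 and moved by less than the spread between libraries in each. The median r between markers ranged from 0.13 to 0.27 with 1 library left out. In limma-voom Trf turned to -0.0096 and Drd4 to 0.016. Without WT 1 and KO 2 Wt1 turned to -0.0052, Dhh to -0.049, Gdnf to -0.27, Shbg to -0.061 and Ptgds to 0.12. Leaving out single libraries gave log2 fold changes ranging from -0.055 to 0.12 for Wt1, -0.068 to 0.21 for Gata1, -0.030 to 0.22 for Nr0b1, -0.13 to 0.38 for Fshr, -0.049 to 0.095 for Dhh, -0.27 to 0.36 for Gdnf, -0.18 to 0.043 for Kitl, -0.23 to 0.19 for Trf, -0.084 to 0.026 for Defb36, -0.082 to 0.0071 for Cst9, -0.14 to 0.036 for Cst12, -0.13 to 0.11 for Shbg, -0.33 to 0.081 for Ptgds, -0.32 to 0.15 for Drd4 and -0.099 to 0.017 for Tsx; the cause was not tested. With the replicate number as a block 1 gene and 0 markers were called, the median of the markers was -0.06 and 2 of 28 markers had an unadjusted p under 0.05, beside 4.45% of all tested genes. Same-numbered WT and KO libraries correlated in their deviations at -0.173, -0.0289 and 0.114, and differently numbered ones at -0.165 to 0.185. These values show no pairing by number, but a weak one could not be seen in them. Depth limits Gdnf, Trf, Wnt5a and Fshr, the tested markers with the fewest reads, whose intervals reach past 1.5-fold.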
